A study of Drosophila melanogaster with 18 samples.

Results

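The oxidative phosphorylation subunit genes were 69 of the 10845 genes with a probe set of their own on the array. They were taken by symbol, as every gene whose symbol starts with ND-, COX and a digit, ATPsyn, UQCR- or Sdh, together with Cyt-c1 and RFeSP, and each was read from 1 probe set. By complex, 31 belonged to complex I, 7 to complex II, 6 to complex III, 11 to complex IV and 14 to complex V. Of the 69, 17 are paralogues by name, with an L after the name of the subunit they resemble (COX4L, ATPsynbetaL). The rule also took in Sdhaf3, which by its name is an assembly factor of complex II and not a subunit.

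RNA came from pools of about 60 whole heads each, from Drosophila melanogaster of the genotype Canton-S, a wild-type strain, at an age of 2 to 5 days. Naive flies received humidified air for 50 min and no ethanol. Flies of the single-exposure group received the same air and then 1 exposure of 40 min to 50% ethanol vapor, and flies of the 5-exposure group received the air and then 5 such exposures. Each group had 6 arrays, which the labels call biological replicates. The experiment concerns fast and chronic ethanol tolerance. No group given further air in place of the ethanol, for 1 exposure or for 5, was analysed here. The sex of the flies and the spacing of the exposures are not stated in the labels.

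Oxidative phosphorylation takes place in the inner mitochondrial membrane. Complexes I and II feed electrons from NADH and succinate into the chain, complex III passes them to cytochrome c, complex IV passes them on to oxygen, and complexes I, III and IV pump protons. Complex V, the ATP synthase, uses the return flow of protons to make ATP. All subunits of complex II and most of the other complexes are encoded in the nucleus, and a few of complexes I, III, IV and V are encoded by mitochondrial DNA. Of 13 names of such mitochondrial genes none had a probe set of its own, so they were not analysed here. Brain and eye neurons and the muscles of the head are rich in mitochondria, and an array of whole heads sums over them, so fewer cells of a type and less RNA per cell cannot be told apart.

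Signals are given as the authors' normalized intensities, on a linear scale, and are compared only between groups for the same probe set. Folds are fitted folds with 95% confidence intervals. A gene was called where limma gave a Benjamini-Hochberg adjusted p under 0.05 over all 9317 probe sets tested. Of the 69 genes, 60 lay above the filter on low values and were tested, 50 subunits and 10 paralogues. The 9 below it were the paralogues ND-24L, ND-51L2, SdhCL, UQCR-14L, COX5BL, COX6AL2 and COX7AL, the assembly factor Sdhaf3 and the subunit COX7C. COX7AL had the lowest naive median of these, 19.7, and Sdhaf3 the highest, 88.1. COX7C had a naive median of 67.1, a single-exposure median of 65.9 and a 5-exposure median of 66.7. No tested gene of the set had an array at the floor of 57.8.

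Array medians lay between 125.4 and 129.3. Naive replicate 5 stood apart, with a mean correlation of 0.982 with the other naive arrays against 0.988 or more for every other array with its own group. Its log2 signal for the spike-in control BioB was 9.18, against 7.85 to 8.54 on the other arrays. It also had the highest mean of the subunit genes of all 18 arrays, 0.08 in log2 units from the naive mean. The part of this array's quality in the subunit values was not tested. Photoreceptor genes gave strong signals, with naive medians of 6867 for the arrestin gene Arr2 and 2187 for the photoreceptor channel gene trp. Of 10 neuron markers with a probe set 9 were tested, and the neuron marker elav lay below the filter. The titles carry array numbers that follow the groups in order, and array order or batch and group therefore cannot be told apart.

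After 1 exposure most subunit genes lay slightly below the naive level. Of the 60 tested genes, 48 had a fold below 1 after 1 exposure, against 42.9% of all probe sets tested, and their median log2 fold was -0.08 against 0.01 for all probe sets. With the 10 paralogues set aside, 47 of the 50 subunits had a fold below 1, with a median fold of 0.942. Only 2 of the 60 passed the test, both lower, which is 3.33% of them. Over all 9317 probe sets 4.42% were called, 1.86% lower and 2.57% higher, so the share of genes called was near the background. With quantile normalization the count was 8, all lower, which is 13.3% of the set against 4.69% of all probe sets called and 2.29% called lower. It was 0 without any 1 of naive replicates 2 and 5 and single-exposure replicates 2 and 4, and 1 without naive replicate 3 or single-exposure replicate 3, 5 or 6. The shifts were small. Subunit genes moved up and down together between arrays, within and across complexes, so these counts are not counts of independent genes.

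After 5 exposures the picture was similar in size. Of the 60 tested genes 51 had a fold below 1 against the same naive arrays, against 46.6% of all probe sets, and the median log2 fold was -0.06 against 0.01 for all. Of the 50 subunits 45 had a fold below 1, with a median fold of 0.952. Of the 60, 4 fell and none rose, 6.67%, where 6.33% of all probe sets were called, 3.85% lower and 2.48% higher. The count was 0 without naive replicate 5 or 5-exposure replicate 4 or 6, 1 without naive replicate 2 or 5-exposure replicate 3, and 2 without naive replicate 1 or 3. With quantile normalization 40 of the 60 had a fold below 1 after 5 exposures and the median log2 fold was -0.03. Both comparisons use the same naive arrays, so neither stands apart from the other.

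At an unadjusted p under 0.05, limma gave 20 genes of the set lower and 0 higher after 1 exposure, against 7.04% of all probe sets lower and 7.84% higher. After 5 exposures it gave 15 lower and 0 higher, against 9.38% and 8.14% of all probe sets. Within each comparison, every gene of the set under this threshold was thus lower, although few passed the adjusted test.

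Between 5 exposures and 1 the folds of the set were split between both directions. Of the 60 genes 29 had a fold below 1, against 55.6% of all probe sets, and the median log2 fold was 0.00 against -0.01. Under quantile normalization this changed, with 9 of the 60 below 1, a median log2 fold of 0.06 and 7 genes called, all higher, which is 11.7% of the set against 8.76% of all probe sets called and 4.69% called higher. The 1 gene called, COX7A, was higher after 5 exposures, 1.67% of the set, against 8.5% of all probe sets called in either direction, 3.74% higher and 4.77% lower. At an unadjusted p under 0.05, limma gave 3 of the set higher and 1 lower, against 8.46% and 9.78% of all probe sets. Parts of the set lay on 1 side: all 10 subunits of the peripheral arm of complex I and all 6 of complex IV had folds above 1, while all 5 of complex III and 9 of 10 paralogues had folds below 1, and COX7A was the 1 gene called among them.

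No gene of the set changed by much in any comparison. The 95% intervals of all 60 folds lay between 0.762 and 1.19 after 1 exposure, between 0.802 and 1.13 after 5, and between 0.781 and 1.20 for 5 exposures over 1. Among all probe sets, fitted folds reached 1.5 or more upward for 44 and downward for 14 after 1 exposure, and for 19 and 46 after 5. The median standard error of a log2 fold in the set was 0.05.

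**Figure D1:**
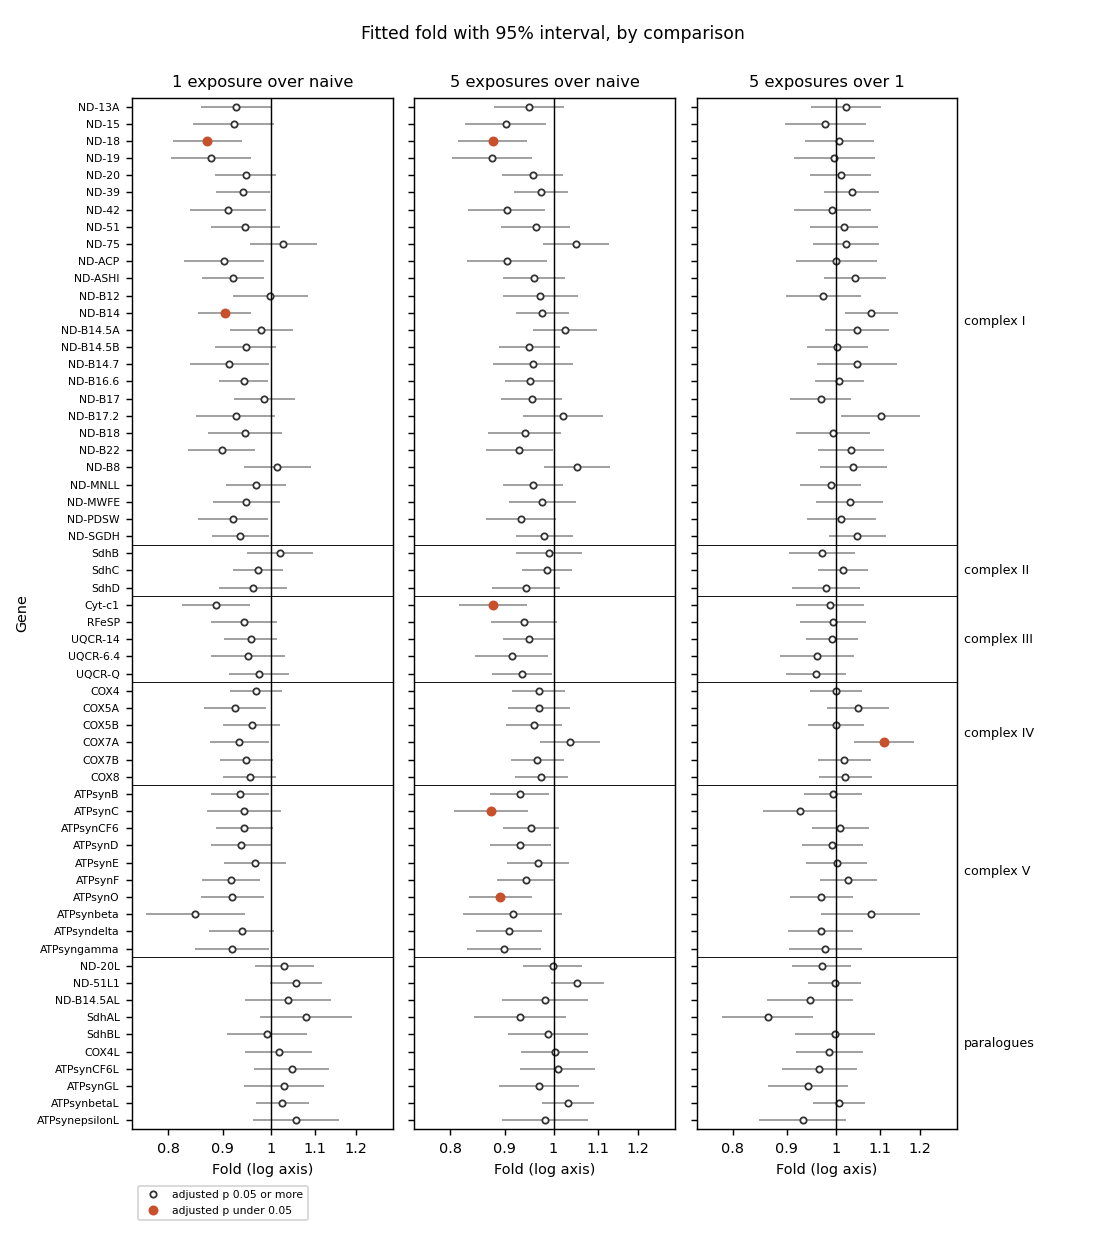
Fitted fold on a log axis with its 95% interval (limma, 6 arrays a group) for the 60 tested genes, 1 panel for each comparison, ordered by complex with the paralogues last. Filled points are called at an adjusted p under 0.05, 2, 4 and 1 of them from left to right, and nearly all subunits lie a little to the left of 1 in the first 2 panels.

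Complex I, the NADH dehydrogenase, has a peripheral arm that carries the flavin and the iron-sulfur clusters and a membrane arm that pumps protons. Of its 26 tested subunits 24 had a fold below 1 after 1 exposure and 22 after 5, with median log2 folds of -0.09 and -0.06. Over all probe sets 42.9% and 46.6% lay below 1, the shares to set beside these counts and those of the other complexes and paralogues below. The 15 subunits of the membrane arm all had folds below 1 in both comparisons with naive flies, with medians of -0.10 and -0.07, and none was called. The 10 subunits of the peripheral arm had 8 and 6 folds below 1, with medians of -0.09 and -0.04. The difference between the arms was not tested.

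ND-18, the counterpart of human NDUFS4, is an accessory subunit of the peripheral arm that is needed for assembly of complex I and whose human gene is a cause of Leigh syndrome. Its 6 naive arrays ran from 552 to 628 with a median of 593, its single-exposure arrays from 449 to 575 with a median of 524, and its 5-exposure arrays from 483 to 537 with a median of 522. All 6 5-exposure arrays lay below all naive arrays, while the highest single-exposure array overlapped the naive range. ND-18 fell to 0.870-fold after 1 exposure (0.808 to 0.938, adjusted p = 0.0255) and to 0.877-fold after 5 (0.814 to 0.945, adjusted p = 0.0294). The call after 1 exposure was lost without any 1 of naive replicates 2 and 5 and single-exposure replicates 2 and 4, with adjusted p up to 0.0679. The call after 5 was lost without any 1 of naive replicates 2 and 5 and 5-exposure replicates 4 and 6, with adjusted p up to 0.0855.

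ND-B14, the counterpart of human NDUFA6, is another accessory subunit of the peripheral arm. Its naive arrays ran from 1100 to 1299 (median 1173), its single-exposure arrays from 1042 to 1140 (median 1059) and its 5-exposure arrays from 1117 to 1188 (median 1164). The single-exposure arrays were low and close together apart from 1, and the 5-exposure arrays lay within the naive range. ND-B14 fell to 0.904-fold after 1 exposure (0.853 to 0.958, adjusted p = 0.0381). After 5 exposures its fold was 0.976 (0.922 to 1.03, adjusted p = 0.755). The fold of 5 exposures over 1 was 1.08 (1.02 to 1.14), with an adjusted p of 0.100. Leaving out any 1 of 8 arrays ended the call after 1 exposure: naive replicate 2, 3 or 5, or single-exposure replicate 2, 3, 4, 5 or 6, with adjusted p up to 0.0848.

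ND-19, an accessory subunit of the membrane arm, had naive arrays from 1007 to 1139 (median 1067), single-exposure arrays from 827 to 1136 (median 939) and 5-exposure arrays from 876 to 990.3 (median 962). Every 5-exposure array lay below every naive array, and the single-exposure arrays spread over more than the naive range. Its fold was 0.877 after 1 exposure (adjusted p = 0.0868) and 0.875 after 5 (adjusted p = 0.0624), so it passed the test in neither. After 5 exposures it passed with only the 2 groups compared in the model (0.0197), with array weights (0.0462), and without single-exposure replicate 1 or 4, which enter through the shared estimate of the spread. ND-18 and ND-19 were the 2 genes of the set with no overlap between 5-exposure and naive arrays, both lower, where 2.09% of all probe sets were so. None of the set lay wholly above the naive arrays after 5 exposures, against 1.57% of all probe sets, and none was apart from the single-exposure arrays, against 2.09% higher and 3.01% lower.

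Core subunits of the peripheral arm were not called. ND-75, which carries iron-sulfur clusters of the NADH dehydrogenase module, had a fold of 1.03 after 1 exposure (0.955 to 1.10) and of 1.05 after 5 (0.978 to 1.13). ND-51, which binds NADH and flavin, had folds of 0.945 (0.877 to 1.02) and 0.962 (0.893 to 1.04). ND-20, which holds the last iron-sulfur cluster before ubiquinone, had folds of 0.946 (0.885 to 1.01) and 0.956 (0.895 to 1.02). The core subunit ND-49 had no probe set of its own and was not analysed here. For these 3 genes every interval included 1, which does not show that their levels were equal.

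Within complex I the peripheral-arm subunit ND-B17.2, the counterpart of human NDUFA12, had the highest fold of 5 exposures over 1, at 1.10 (1.01 to 1.20, adjusted p = 0.183). Among subunits outside the rule for named genes, chosen after their values were seen, ND-B22 of the membrane arm had a fold of 0.898 after 1 exposure (0.836 to 0.965, adjusted p = 0.0888). ND-ACP, the mitochondrial acyl carrier protein, had folds of 0.903 and 0.904 (adjusted p = 0.233 and 0.198). At the other end ND-B8 had folds of 1.01 and 1.05. Its arrays ran from 104 to 118 in naive flies, near the filter at 85.8.

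**Figure D2:**
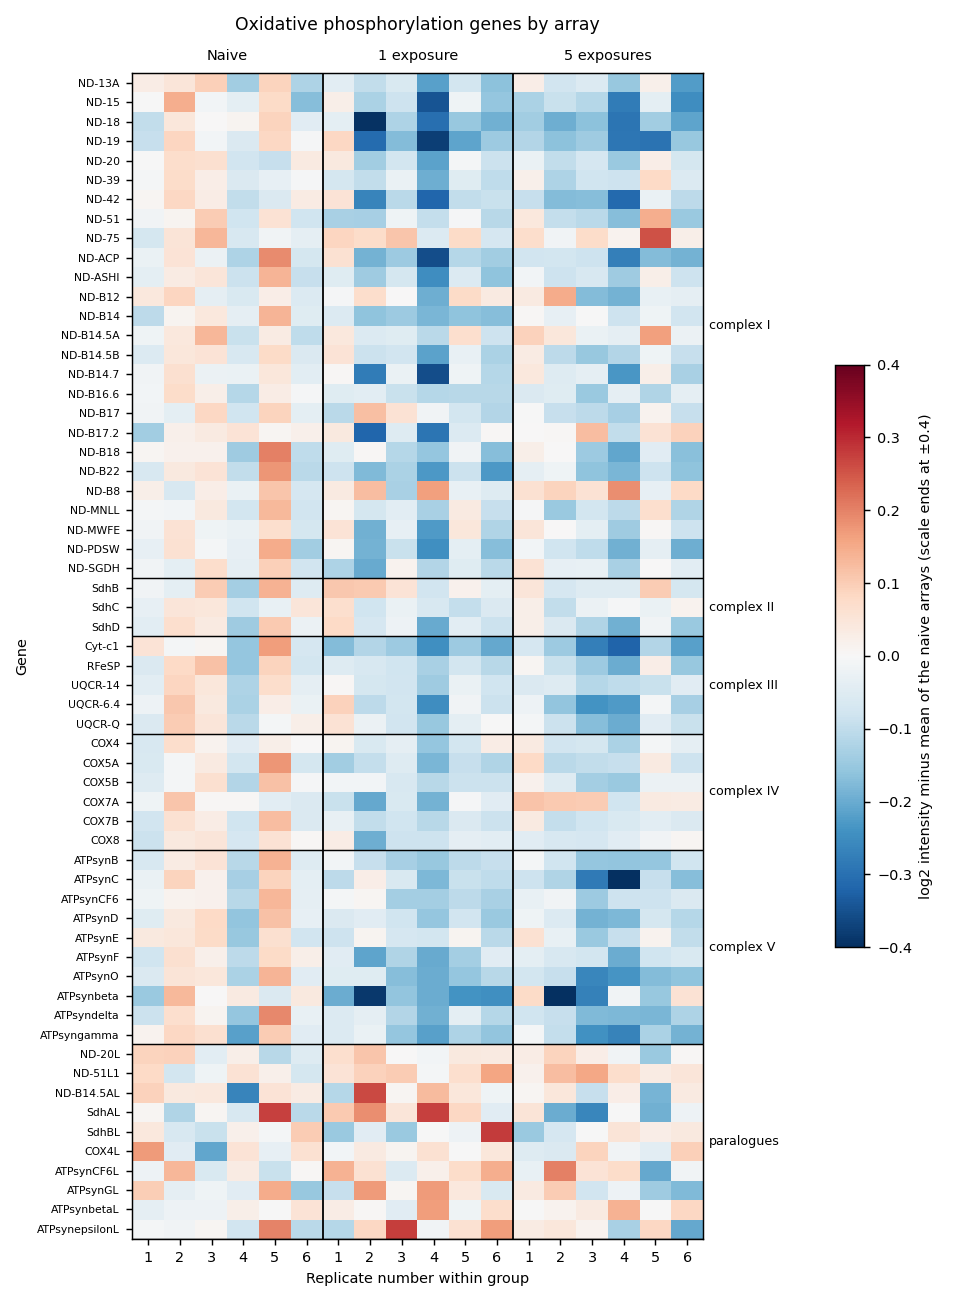
Log2 intensity of each tested gene on each of the 18 arrays, minus the mean of that gene over the 6 naive arrays, with genes in rows grouped by complex and arrays in columns grouped by exposure. Colours run from blue (lower) to red (higher) and end at 0.4 on either side; arrays such as single-exposure replicate 4 and 5-exposure replicate 4 are blue through complexes I to V and not in the paralogue rows at the bottom.

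Complex II, succinate dehydrogenase, is shared with the tricarboxylic acid cycle. Its 3 tested subunits had a median log2 fold of -0.04 after 1 exposure and -0.02 after 5, and none was called in either. SdhB, the iron-sulfur subunit, had naive arrays from 1013 to 1226 (median 1093), single-exposure arrays from 1055 to 1198 (median 1142) and 5-exposure arrays from 1061 to 1194 (median 1075), which overlapped throughout. Its folds were 1.02 (0.949 to 1.10) and 0.990 (0.922 to 1.06), and the direction of the second turned with quantile normalization and without naive replicate 3 or 5. The membrane anchors SdhC and SdhD had folds of 0.971 and 0.962 after 1 exposure and of 0.986 and 0.943 after 5, with intervals that all included 1. The flavoprotein gene SdhA had no probe set of its own and was not analysed here.

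Complex III, ubiquinol-cytochrome c reductase, had 5 tested subunits, all with folds below 1 in both comparisons with naive flies. The median log2 fold was -0.07 after 1 exposure and -0.10 after 5. Of the 5 subunits 1, Cyt-c1, fell after 5 (20%), against 3.85% of all probe sets called lower. Cyt-c1 encodes cytochrome c1, the haem protein that hands electrons to cytochrome c. Its naive arrays ran from 1830 to 2286 with a median of 2037, its single-exposure arrays from 1720 to 1876 with a median of 1823, and its 5-exposure arrays from 1631 to 1943 with a median of 1797. Most exposed arrays were low, with overlap at the lowest naive arrays. Cyt-c1 fell to 0.876-fold after 5 exposures (0.814 to 0.943, adjusted p = 0.0262). After 1 exposure its fold was 0.887 (0.824 to 0.955), with an adjusted p of 0.0610, and it passed the test without naive replicate 4, with quantile normalization (adjusted p = 0.00792), with the replicate block (0.0136) and with a pseudocount (0.0447). Without naive replicate 1 or 5, or 5-exposure replicate 3, 4 or 6, the call after 5 was lost, with adjusted p up to 0.0801, and it was lost with quantile normalization (0.0686).

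RFeSP, the Rieske iron-sulfur protein, takes electrons from ubiquinol and passes them to cytochrome c1. It had folds of 0.943 (0.878 to 1.01) and 0.939 (0.874 to 1.01) and was not called. The supernumerary subunits UQCR-14 and UQCR-Q had folds of 0.956 and 0.973 after 1 exposure and of 0.948 and 0.934 after 5, and that of UQCR-Q after 5 had an interval from 0.875 to 0.996 and an adjusted p of 0.248. The core subunit genes UQCR-C1 and UQCR-C2 were not analysed here, for want of a probe set with a single symbol.

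Complex IV, cytochrome c oxidase, passes electrons to oxygen. Its 6 tested nuclear subunits all had folds below 1 after 1 exposure, with a median log2 fold of -0.07 and no call, and 5 of 6 after 5 exposures, with a median of -0.05 and no call. Between 5 exposures and 1 all 6 had folds above 1, with a median log2 fold of 0.03. COX5A, which lies on the matrix side, had the lowest fold after 1 exposure, 0.924 (0.864 to 0.989, adjusted p = 0.234), and 0.970 after 5. COX4, whose counterpart in mammals is where ATP inhibits the enzyme, had folds of 0.967 and 0.968. COX5B had folds of 0.958 and 0.959, and all 4 intervals of these last 2 genes included 1.

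COX7A, a small membrane subunit whose family bears on the pairing of complexes III and IV in other animals, was the gene that differed between 5 exposures and 1. Naive arrays ran from 2364 to 2658 (median 2451), its single-exposure arrays from 2135 to 2454 (median 2337) and its 5-exposure arrays from 2330 to 2667 (median 2585). Single-exposure arrays were low and 5-exposure arrays high relative to each other, with overlap between them. COX7A was higher after 5 exposures than after 1, at 1.11-fold (1.04 to 1.18, adjusted p = 0.0364). Against naive flies its folds were 0.933 after 1 exposure (adjusted p = 0.287) and 1.04 after 5 (adjusted p = 0.639), so neither exposure by itself passed the test. The call was lost without single-exposure replicate 1, 2 or 4 or 5-exposure replicate 1, 2, 3, 5 or 6, with adjusted p up to 0.100, and with only these 2 groups in the model (0.0606).

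Complex V, the ATP synthase, has a catalytic head (F1) with a central stalk, a rotor ring in the membrane and a peripheral stalk that holds the head still. Its 10 tested subunits all had folds below 1 in both comparisons with naive flies, with median log2 folds of -0.10 after 1 exposure and -0.12 after 5. None was called after 1 exposure and 2 fell after 5, 20% of the 10, against 3.85% of all probe sets called lower. The 4 subunits of the peripheral stalk had medians of -0.10 and -0.10, and the 3 of F1 medians of -0.12 and -0.14.

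ATPsynO, the oligomycin sensitivity-conferring protein that joins the peripheral stalk to the head, had naive arrays from 2647 to 3177 (median 2892), single-exposure arrays from 2521 to 2799 (median 2639) and 5-exposure arrays from 2416 to 2747 (median 2575). The groups overlapped only at the low end of the naive arrays. It fell to 0.891-fold after 5 exposures (0.833 to 0.954, adjusted p = 0.0366) and had a fold of 0.919 after 1 (0.859 to 0.984, adjusted p = 0.193). Leaving out naive replicate 2, 3 or 5 or 5-exposure replicate 3, 4, 5 or 6 ended the call, with adjusted p up to 0.100, and quantile normalization gave 0.185.

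ATPsynC encodes the subunit of the rotor ring. Its naive arrays ran from 3631 to 4236 (median 3969), its single-exposure arrays from 3514 to 4054 (median 3721) and its 5-exposure arrays from 2968 to 3757 (median 3596). Replicate 4 of the 5-exposure group was the lowest of all 18 arrays, and the groups overlapped, with replicate 2 of the single-exposure group above the naive median. ATPsynC fell to 0.873-fold after 5 exposures (0.806 to 0.946, adjusted p = 0.0374). A second, dim probe set of the gene, with a mean intensity of 133, had a log2 fold of -0.11 and was not called (adjusted p = 0.468), and the mean of both gave an adjusted p of 0.121. The call was lost without naive replicate 1, 2, 3, 5 or 6 or 5-exposure replicate 3, 4 or 6, with adjusted p up to 0.104.

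ATPsynbeta, the catalytic subunit, had the lowest fold of the set after 1 exposure. Its signal was under 400, as were those of most paralogues. On every array it lay above the array medians, 125.4 to 129.3. With no detection calls, how far such signals rise above background is not known. On naive arrays it ran from 246.6 to 299 (median 277), its single-exposure arrays from 209 to 244.5 (median 235) and its 5-exposure arrays from 198 to 288 (median 258). All 6 single-exposure arrays lay just below all naive arrays, the only gene of the set for which this held, where 1.12% of all probe sets were so. None lay wholly above, against 1.89% of all. The 5-exposure arrays spread over both ranges. Its fold was 0.848 after 1 exposure (0.762 to 0.944) with an adjusted p of 0.0801 (passing at 0.0129 with only these 2 groups in the model, and without 5-exposure replicate 2), and 0.915 after 5 (0.822 to 1.02, adjusted p = 0.414). The central stalk gene ATPsyngamma had folds of 0.919 (0.848 to 0.994, adjusted p = 0.289) and 0.899 (0.830 to 0.973, adjusted p = 0.116).

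With only the 2 groups compared in the model, the calls of ND-18 and ND-B14 after 1 exposure and of Cyt-c1, ATPsynO and ATPsynC after 5 were also lost, with adjusted p from 0.0649 to 0.0920. The call of ND-B14 was lost with array weights (0.0538), as was that of COX7A (0.0824). Without the filter on low values, which puts more probe sets under test, ND-18, ATPsynO and ATPsynC did not pass after 5 exposures, with adjusted p from 0.0523 to 0.0744. With quantile normalization ATPsynC had an adjusted p of 0.0518.

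**Figure D3:**
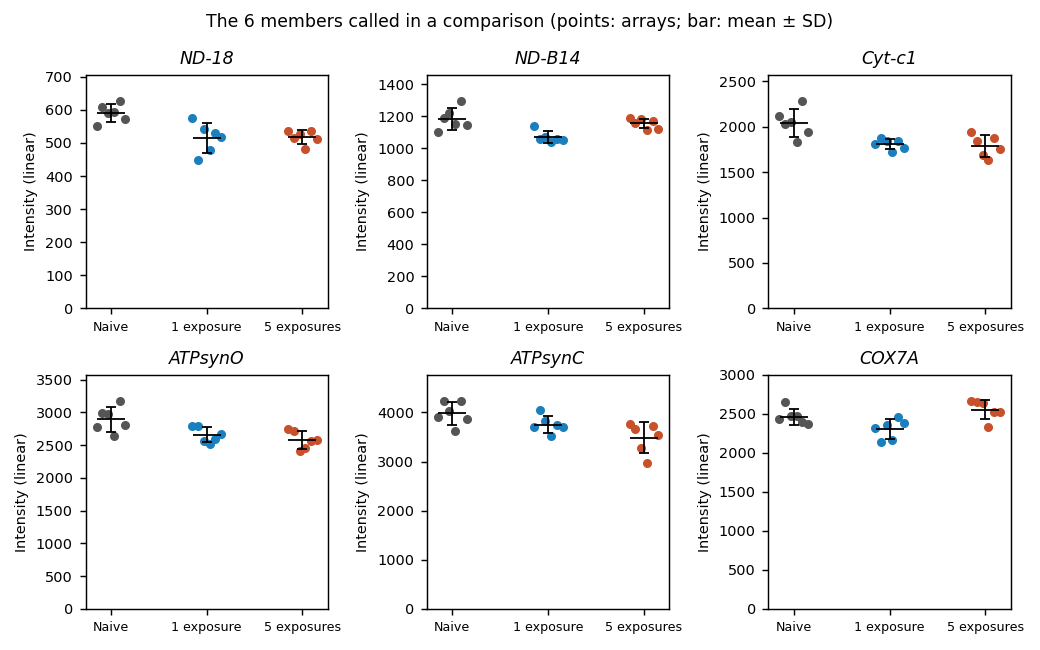
Normalized intensity (linear axis from 0) on each array for the 6 genes called in any comparison, with points for the 6 arrays of each group and bars for mean ± SD. ND-18 and ND-B14 were called after 1 exposure, ND-18, Cyt-c1, ATPsynO and ATPsynC after 5, and COX7A between 5 exposures and 1; the differences are small beside the distance from 0.

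The 10 tested paralogues had folds on both sides of 1. Several genes of this kind are known in Drosophila for expression in the testis, and most gave weak signals in heads, with naive medians from 90.4 for COX4L to 365 for ND-20L. After 1 exposure 1 of 10 had a fold below 1, with a median log2 fold of 0.05, and after 5 exposures 6 of 10, with a median of -0.01. None was called in any comparison. At an unadjusted p under 0.05, limma gave 0 after 1 exposure, 0 after 5 and 1 between 5 exposures and 1. That 1 was SdhAL, a paralogue of the complex II flavoprotein, with a fold of 0.863 for 5 exposures over 1 (0.781 to 0.953, adjusted p = 0.0615), which passed without naive replicate 5, single-exposure replicate 6 or 5-exposure replicate 1 (adjusted p as low as 0.0223). With only these 2 groups in the model SdhAL also passed (0.0464) and was then the 1 gene of the set called, lower, where COX7A was not. ND-51L1 had the highest fold of complex I after either exposure, 1.06 and 1.05, with intervals that included 1. Tests of the difference between subunits and paralogues as lists were not made.

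Set per array, the mean of the 50 subunits ran from -0.09 to 0.08 on the naive arrays, in log2 units from the naive mean. It ran from -0.18 to -0.02 on the single-exposure arrays and from -0.15 to 0.00 on the 5-exposure arrays. The naive arrays overlapped both exposed groups, with naive replicates 4, 6 and 1 at -0.09, -0.04 and -0.04. For complex V the ranges were -0.12 to 0.10, -0.17 to -0.07 and -0.19 to -0.02. For the paralogues they were -0.04 to 0.05, -0.01 to 0.10 and -0.08 to 0.03.

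**Figure D4:**
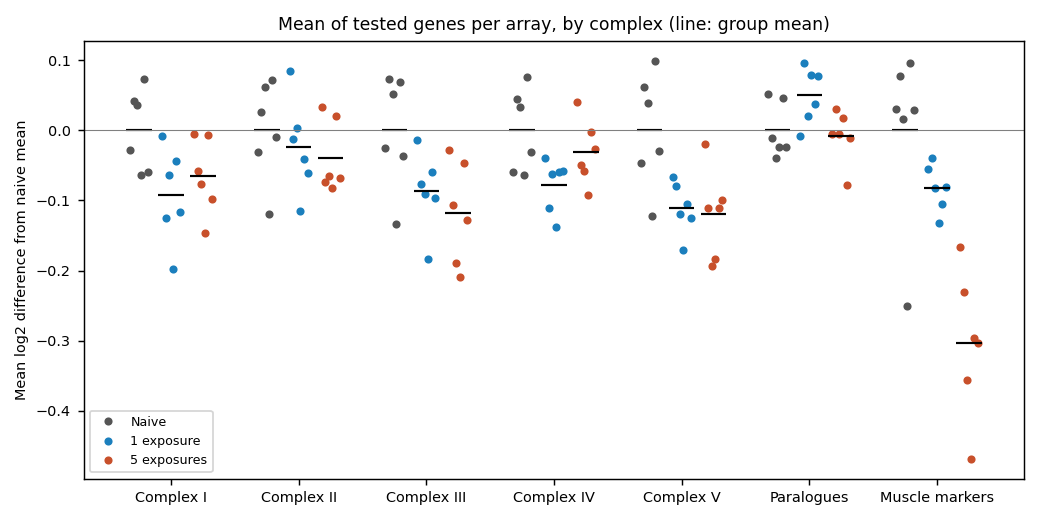
Mean over the tested genes of each complex, of the paralogues and of the muscle markers on each array, in log2 units from the naive mean, with a line at the mean of each group of 6 arrays. The subunit groups shift down by about 0.1 or less with overlap of the groups, while the muscle markers on the 5-exposure arrays lie from -0.47 to -0.17.

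The subunit genes varied together from array to array. With group means removed, the median Pearson correlation over the 18 arrays between pairs of the 50 subunits was 0.541, and 56.2% of the 1225 pairs were above 0.5. Over all 9317 probe sets the median was 0.00, with 7.56% of pairs above 0.5. These correlations are descriptions, since the genes of an array share its RNA pool, labelling, hybridization and scaling. Among the 1075 probe sets with a mean intensity of 500 or more the median was 0.04, against 0.569 among the 48 subunits that bright. The bright probe sets had median log2 folds of 0.00 after 1 exposure and -0.01 after 5.

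The pairs correlated most within complexes III (median 0.749) and V (0.679), where the 4 subunits of the peripheral stalk had a median of 0.870, the 3 of the membrane part 0.543 and the 3 of F1, which include ATPsynbeta, -0.05. Complex IV had 0.535, complex I 0.533 and complex II 0.441. Pairs taken across complexes had medians near these, 0.588 for IV with V, 0.495 for I with IV and 0.460 for I with V. SdhD had the highest median correlation with the other subunits, 0.753, and the membrane-arm subunit ND-B22 came next, at 0.704. The lowest was ND-B8, at -0.18, then ATPsynbeta, at 0.03, and these were the 2 of the 50 subunits whose mean intensity lay below 500. Paralogues correlated with each other at a median of 0.06 and with the subunits at -0.16. The median among the subunits was 0.656 within the naive group, 0.537 within the single-exposure group and 0.575 within the 5-exposure group. It was 0.442 with quantile normalization, 0.614 with median centring, 0.512 without naive replicate 4 and 0.550 without naive replicate 5.

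**Figure D5:**
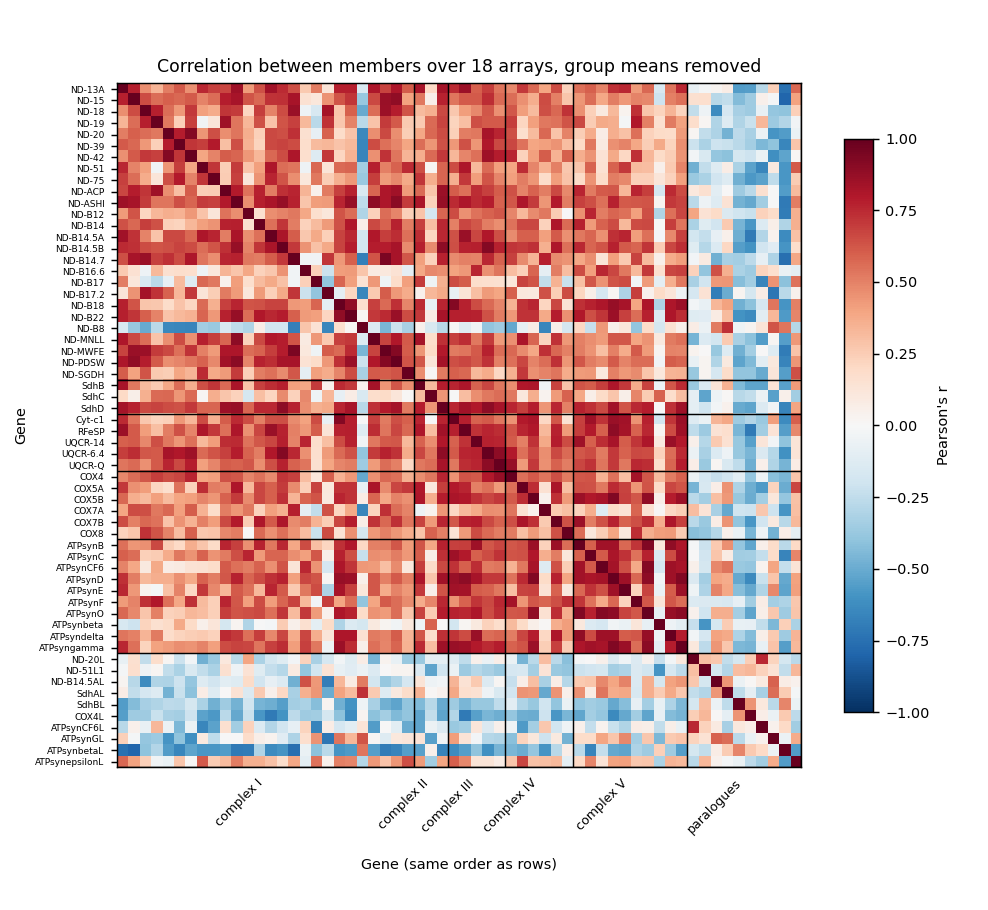
Pearson correlation over 18 arrays with group means removed for each pair of the 60 tested genes, in the same order on both axes, from -1 (blue) to 1 (red). The block of complexes I to V is mostly red, with ND-B8 and ATPsynbeta as pale or blue lines, and the paralogues at the end are pale or blue against it.

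Subunits whose symbols the rule does not match were tested too. Of 7, blw (the alpha subunit of ATP synthase), sun (its epsilon subunit), levy and cype (complex IV), ox (complex III), Neb-cGP and CG13551 all had folds below 1 after 1 exposure, with a median log2 fold of -0.07 and no call. After 5 exposures 6 of 7 had folds below 1, with a median of -0.07 and no call. The alpha subunit blw, with a naive median of 4703, had folds of 0.939 (0.880 to 1.003) and 0.952 (0.892 to 1.02). CG13551, whose synonym IF1 is the name of the inhibitor protein of the ATP synthase, was the exception. Its naive arrays ran from 567 to 689, its single-exposure arrays from 551 to 693 and its 5-exposure arrays from 667 to 790.3. It was higher after 5 exposures than after 1, at 1.16-fold (1.06 to 1.27, adjusted p = 0.0305), and at 1.12-fold of naive after 5 (1.02 to 1.22, adjusted p = 0.153). The difference between exposures was lost without any 1 of single-exposure replicates 2, 3, 4 and 6 and 5-exposure replicates 2 and 3, with adjusted p up to 0.0882.

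The rest of the mitochondrial genes gave few calls. Of 11 assembly factors and of 13 enzymes of pyruvate dehydrogenase and the tricarboxylic acid cycle none was called in any comparison. At an unadjusted p under 0.05, limma gave 1 assembly factor lower after 1 exposure and 0 after 5, and 3 and 6 of the 13 cycle enzymes, all lower. Over all probe sets 7.04% and 9.38% were lower at this threshold. Median log2 folds were -0.01 and -0.02 for the assembly factors and -0.07 and -0.05 for the cycle enzymes. Of 15 genes of carriers and protein import, 1 fell after 1 exposure, 6.67%, against 4.42% of all probe sets called. This was mge, which encodes the import receptor Tom22 (0.909-fold, adjusted p = 0.0385). Its call was lost without any 1 of naive replicates 1, 2, 3 and 6 and single-exposure replicates 2, 3, 4 and 6, with adjusted p up to 0.0920.

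After 5 exposures 2 carrier genes passed, 13.3% of the 15, against 6.33% of all probe sets called. Mpcp1, a mitochondrial phosphate carrier that supplies the ATP synthase, had naive arrays from 1602 to 2107 and 5-exposure arrays from 1349 to 1709, and fell to 0.831-fold (0.759 to 0.909, adjusted p = 0.00987). The carnitine-acylcarnitine carrier gene colt, which takes fatty acids in for oxidation, had naive arrays from 457 to 603 and 5-exposure arrays from 618 to 752.5, with no overlap. It rose to 1.34-fold (1.22 to 1.46, adjusted p = 0.000162) and lay at 1.28-fold of the single-exposure level (adjusted p = 0.000592). Both genes passed with each of the 18 arrays left out in turn. By unadjusted p under 0.05, limma gave 2 of the 15 lower and 0 higher after 1 exposure. After 5 it gave 4 lower and 3 higher, against 9.38% and 8.14% of all probe sets.

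Of 8 regulators of mitochondrial gene expression 1 was called, 12.5%, after 1 exposure and between 5 exposures and 1. Over all probe sets 4.42% and 8.5% were called in these comparisons. ewg encodes erect wing, the fly counterpart of the factor NRF1, which in mammals regulates nuclear genes of respiration. On naive arrays ewg ran from 107 to 169 (median 152), its single-exposure arrays from 89.1 to 122.5 (median 113) and its 5-exposure arrays from 125.5 to 160 (median 148.5). It fell to 0.765-fold after 1 exposure (0.670 to 0.874, adjusted p = 0.0149), was at 1.01-fold after 5 (adjusted p = 0.956), and was higher after 5 than after 1 at 1.32-fold (adjusted p = 0.00630). Its signal lay not far above the filter at 85.8, and without that filter the call after 1 exposure was lost (adjusted p = 0.0621). TFAM and ERR, 2 other regulators on the list, had folds from 0.977 to 1.03 against naive flies.

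On average the muscle markers lay below the naive level after both exposures, and further below it after 5. Of 19 tested, 12 fell and none rose after 5 exposures, 63.2% of them, against 3.85% of all probe sets called lower. None was called after 1, when limma gave 4 lower at an unadjusted p under 0.05, against 7.04% of all probe sets. Between 5 exposures and 1, 8 of the 19 were called lower and none higher, 42.1%, against 4.77% of all probe sets called lower. The summed intensity of the muscle markers ran from 19890 to 27975 on naive arrays, from 21587 to 24997 on single-exposure arrays and from 16407 to 21491 on 5-exposure arrays. The muscle myosin gene Mhc had no probe set of its own. Naive replicate 4, the naive array with the lowest subunit mean, was also the lowest for muscle markers, at -0.25 in log2 units. The median correlation between subunits and muscle markers over the 18 arrays, group means removed, was 0.362. The part of muscle content in the subunit values was not tested.

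Other lists of markers moved too, in both directions. Over all probe sets 4.42% were called after 1 exposure, 6.33% after 5 and 8.5% between 5 exposures and 1. Of 9 neuron markers none was called, with summed ranges of 4411 to 4676, 4454 to 4639 and 4122 to 4861 on naive, single-exposure and 5-exposure arrays. Of 9 photoreceptor markers none was called after 1 exposure, and 1 rose and 1 fell after 5 (22.2%). Between 5 exposures and 1, 2 were called lower (22.2%). Their summed ranges were 19900 to 22232, 21562 to 22886 and 20275 to 23244. Of 7 glia markers 1 (14.3%), Gat, fell after each exposure (0.789-fold and 0.795-fold), with summed ranges of 5279 to 5936, 4907 to 5440 and 4934 to 5504. All 7 glia markers had folds below 1 after 1 exposure, against 42.9% of all probe sets, with a median log2 fold of -0.09. After 5 exposures 3 of the 7 had folds below 1, against 46.6% of all probe sets, with a median of 0.01. Gat had the lowest fold of these markers after each exposure. Their mean per array, in log2 units from the naive mean, ran from -0.05 to 0.04 on naive arrays and from -0.13 to -0.08 on single-exposure arrays, with no overlap, and from -0.12 to 0.01 on 5-exposure arrays. The group mean after 1 exposure was -0.10 for the glia markers and -0.09 for the 50 subunits. Of 11 fat body markers 2 rose and 2 fell after 1 exposure (36.4%) and 3 rose after 5 (27.3%). Between 5 exposures and 1, 3 were called higher and 1 lower (36.4%). Their summed ranges were 42388 to 46463, 44638 to 46337 and 42454 to 50302. Their mean per array ran from -0.15 to 0.07 on naive arrays and from 0.08 to 0.32 on 5-exposure arrays, with no overlap. Log2 folds of the 11 after 5 exposures ran from -0.06 to 1.26 with a median of 0.05, so the mean rests largely on a few genes. The part of these cell types in the subunit values was not tested. Of 10 testis markers 1 fell (10%), after 5 exposures. The log2 ratio of the 3′ to the 5′ probe set for 18S RNA, a sign of RNA and labelling quality, ran from -3.42 to -2.39 on naive arrays, from -2.35 to -1.68 on single-exposure arrays and from -3.29 to -1.57 on 5-exposure arrays, and that for actin from 1.88 to 2.10, from 2.00 to 2.32 and from 2.05 to 2.43. The same ratio ran from 0.87 to 1.54, from 1.02 to 1.63 and from 1.13 to 1.48 for GAPDH, and from 0.36 to 0.67, from 0.39 to 0.87 and from 0.41 to 0.66 for eIF-4a, with overlap of all groups. Single-exposure arrays did not overlap naive arrays for 18S RNA, and the part of this difference in the subunit values was not tested.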

How the data were processed

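The authors deposited normalized intensity values, 1 for each probe set of each array and not logged, with no detection calls (software not given in the sources used here). Biotin-labelled cRNA came from 6 µg of total RNA, per the labels' protocols. A floor at the 20th percentile of all values (57.8) was applied before log2. The 1/3 of all probe sets, controls included, with the lowest mean log2 value, below 6.42, was dropped. The controls (44 probe sets) were left out as well, which left 9317. Genes were named from the platform annotation, updated through gene identifiers, only where a probe set had 1 symbol, and the probe set with the highest mean stood for a gene. The 69 genes had 71 probe sets, and 4 probe sets with several symbols were left out.

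The 3 groups were fitted in 1 limma model (version 3.58.1, R 4.3.3; lmFit and eBayes) with 15 residual degrees of freedom, and p-values were adjusted over all probe sets. The procedure was tested on simulated data, in which probe sets varied independently and 50 were changed by each fold in the single-exposure group. It recovered 36% of changes of 1.1-fold, 76% of 1.2-fold, 98% of 1.5-fold and 100% of 2-fold, with 10 false calls. In these simulated data a change of 1.1-fold was thus missed more often than found. The number of arrays limits the precision. The alternatives tried were array weights, a replicate block, 2 groups only, a robust and trended prior, the mean of a gene's probe sets, quantile normalization, median centring, a pseudocount of 50, a lower floor (5th percentile), no filter or a stricter one, and each array left out. Genes named were called genes, the highest and lowest folds of each complex, a panel of 20 core subunit genes (15 with a probe set), genes below the filter, genes whose probe sets differed in call, and up to 2 called genes of each other list. Of this panel ND-49, SdhA, UQCR-C1, UQCR-C2 and Cyt-c-p were not analysed here. Genes and lists were chosen with earlier results of these data known. Tables were made in Python 3.11.15 with numpy 2.4.6 and pandas 2.3.3, and plots with matplotlib 3.10.9.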

Additional observations from a re-analysis of the deposited data

Results flagged for a closer look

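In 6 of the 120 groups of 6 arrays examined, 1 array lay far from the other 5, where chance gives about 5% of groups. ND-B14 was high on single-exposure replicate 1 (1140, the next array 1070). COX7A was high on naive replicate 2 (2658, next 2470), and ND-75 was high on 5-exposure replicate 5 (881.2, next 777.3). ND-B17.2 was low on naive replicate 1 (614.2, next 680.5). Among the paralogues, SdhAL was high on naive replicate 5 (124, next 103.1) and ND-B14.5AL was low on naive replicate 4 (284.2, next 349.1).

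The change from naive differed between 5 exposures and 1, by limma with Benjamini-Hochberg adjustment, for 4 of the named genes, and each was higher after 5. A call in this comparison was itself a reason to name a gene, so the count follows from the choice of genes. Over all probe sets 8.5% were called in this comparison. The log2 difference was 0.1515 for the complex IV gene COX7A (adjusted p = 0.0364), 0.2146 for CG13551 (adjusted p = 0.0305), 0.3551 for the carrier gene colt (adjusted p = 0.000592) and 0.404 for the regulator gene ewg (adjusted p = 0.00630).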

How the results depend on the processing

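The number of genes of the set called changed readily. After 1 exposure it was 2, and it was 8 with quantile normalization, 1 with array weights and 1 with only the 2 groups compared, all lower, and from 0 to 3 with each array left out. After 5 exposures it was 4, and it was 1 with quantile normalization, 1 without the filter on low values and 2 with only the 2 groups compared, and from 0 to 6 with each array left out. Without naive replicate 5 none was called against naive flies in either comparison. None was called after 1 exposure without any 1 of naive replicate 2 and single-exposure replicates 2 and 4, or after 5 without 5-exposure replicate 4 or 6. Between 5 exposures and 1 it was 1, and it was 7 with quantile normalization, all higher, 0 with array weights, and from 0 to 2 with each array left out. The cause was not tested.

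The median log2 fold of the set kept its sign in every alternative against naive flies, from -0.10 to -0.06 after 1 exposure and from -0.08 to -0.03 after 5. Between 5 exposures and 1 it lay from -0.01 to 0.06, the upper value (0.0598) with quantile normalization. Calls over all probe sets lay from 329 to 507, from 428 to 769 and from 608 to 898 in the 3 comparisons. Named log2 folds near 0 changed sign. That of COX4L after 1 exposure ran from -0.0182 (without naive replicate 3) to 0.0577 with each array left out. That of SdhB after 5 was 0.0188 with quantile normalization and ran from -0.0414 to 0.0136 with each array left out, above 0 without naive replicate 3 or 5. That of RFeSP between 5 exposures and 1 was 0.0684 with quantile normalization and 0.00101 with median centring, and ran from -0.0313 to 0.0139 with each array left out, above 0 without 5-exposure replicate 3, 4 or 6.

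The groups share replicate numbers in the titles. Of 18 same-numbered pairs 8 had a correlation of deviations above 0.1 (range -0.24 to 0.52), and 8 of 18 arrays correlated best with their own number. The median correlation was 0.07 for same-numbered pairs and -0.05 for pairs with other numbers. The titles do not say whether the numbers pair the samples, and this was not tested. The main model used no pairing. With the replicate number as a block, 4 genes of the set were called after 1 exposure, 5 after 5 and 1 between them, and 502, 683 and 898 probe sets in all. Depth has no counterpart on arrays. With no detection calls, how far signals of the paralogues, most under 400, rise above background is not known.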
